A study of Mus musculus with 24 samples.

Results

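The translation initiation factors and the 4E-binding proteins (4E-BPs) were followed in cultured mouse osteoblasts (OBs) that carry a collagen mutation. A gene was a member if its name in the count files began with Eif and a digit from 1 to 6. Eif2ak kinases, pseudogenes and the Y-linked *Eif2s3y* were left out. The rule gave 51 of the 55335 genes, and it used no measured value. They were grouped by complex as 3 genes of eIF2, 5 of eIF2B, 14 of eIF3, 16 of eIF4 and 13 others. In 49 of the 51, counts were high enough for the test in all 5 comparisons. The other two were *Eif4e1b*, an oocyte-type cap-binding protein, which was at 0 counts in 21 of 24 libraries, and *Eif2c5*, an entry of an unrelated kind that shares the name prefix, which was at 0 in 13.

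Primary OBs were taken from the parietal bones of pups a few days after birth and cultured under osteogenic differentiation for 8, 14 or 21 days. The WT pups had the C57BL/6J background, and the Het pups carried on it 1 copy of the G610C mutation in *Col1a2*, which replaces a glycine by a cysteine in the proα2(I) chain of type I collagen. Each of the 6 groups of genotype and day had 4 poly(A) RNA libraries. Cells of several pups of 1 genotype were pooled before plating, so p-values measure the spread between cultures and not between animals. The mutation changes a codon, and a count per gene cannot show it. *Col1a2* RQ at days 14 and 21 was 82.0 to 154 in WT and 74.1 to 135 in Het cultures, and it was called lower in Het.

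Translation of most mRNAs begins when eIF2, loaded with GTP and the initiator tRNA, joins the small ribosomal subunit together with eIF1, eIF1A, eIF3 and eIF5. eIF4E binds the mRNA cap, eIF4G bridges the cap to eIF3, and the helicase eIF4A opens the leader. 4E-BPs occupy eIF4E unless mTORC1 phosphorylates them. eIF2B reloads eIF2 with GTP, and phosphorylation of the eIF2 alpha subunit by stress kinases blocks that step, which is the core of the integrated stress response. OBs are secretory cells that translate large amounts of collagen mRNA.

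Values are given as RQ, in which each count was scaled by 4 housekeeping genes of its library (*Sdha*, *Mrfap1*, *Actb* and *Actg1*, combined as a geometric mean). Fold changes are from edgeR's quasi-likelihood test on the counts with the same scale, and a gene was called at an adjusted p (Benjamini-Hochberg, over all genes tested) under 0.05. The study grew its cultures in a pair of experiments, with cells from different litters, plating densities and oxygen levels. It describes 1 well per genotype and time point in the first and 2 in the second. These are fewer than the 4 libraries per group here. Wells of the same experiment and genotype shared a cell preparation, and the main tests treated libraries as independent. The labels do not say which replicate number belongs to which experiment. Library totals were 17140202 to 59734231 counts. The libraries of replicate 1 were the shallowest (17140202 to 25825762), and they stood apart from replicates 2 to 4 also in level: 8 members were highest in replicate 1 in all 6 groups and none was lowest in all 6. They were *Eif2b1*, *Eif2b3*, *Eif2b5*, *Eif3d*, *Eif3l*, *Eif3j2*, *Eif4e2* and *Eif6*. Replicate 1 was not high throughout. *Eif5*, *Eif3e* and *Eif2s2* were highest in replicate 1 in 5 groups but lowest in 1, Het at day 14. There they were 0.549, 0.569 and 0.586 times the mean of the other replicates. *Eif2s3x* and *Eif4e3* were lowest in replicate 1 in 5 groups. *Eif3j2*, a copy of *Eif3j1* on another chromosome with 6 to 61 counts per library, was 7.08 times the mean of the other replicates (median over groups), and its reads may be shared with *Eif3j1*.

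OB markers were present in every group. Their summed RQ at days 14 and 21 was 95.6 to 186, against 17.4 to 48 at day 8. Most of each sum was *Col1a1*, whose group means were 99.8 to 152 at days 14 and 21. Of the 6 OB markers, 4 were lower and none higher in Het than in WT at days 14 and 21, while 3 of 6 macrophage and osteoclast markers were higher. In that list *Ctsk* and *Acp5* did not have higher means in Het. At day 21 they were 0.957 and 0.0503 in WT and 0.821 and 0.0436 in Het. Among 2 endothelium and 2 fibroblast markers tested, 1 of each was called higher in Het. The macrophage and osteoclast markers summed to an RQ of 1.97 to 6.25 in WT and 2.88 to 14.8 in Het at these days. The 3 chondrocyte markers had a median summed RQ of 9.76 in WT and 2.2 in Het at day 14. At day 21 the medians were 4.6 and 1.25. The genotypes overlapped, with highest sums of 21.6 in WT and 22.5 in Het at day 14 and 7.94 and 7.89 at day 21. In both genotypes these highest sums were those of replicate 1. The Het medians lay below the lowest WT sums, which were 6.22 at day 14 and 3.42 at day 21. None of the 3 was called between genotypes. In bulk RNA, fewer cells of a type and less RNA per cell cannot be told apart. The part of cell composition in the results below was not tested.

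Per kb of exon, the members spanned a wide range of levels. In WT OBs at days 14 and 21 the top of the order was *Eif5a*, which helps ribosomes past difficult peptide bonds, with a mean RQ per kb of 0.32 ± 0.0373 (SD, n = 8). It was followed by *Eif4a1*, the main cap-complex helicase, at 0.239 ± 0.0278, *Eif1*, which guards start codon choice, at 0.232 ± 0.0146, and the eIF3 subunit *Eif3h* at 0.223 ± 0.0191. The last 3 overlapped each other, and *Eif5a* overlapped *Eif4a1* at the edge (lowest 0.278 against highest 0.295). The cap-binding protein *Eif4e* stood far lower, at 0.0239 ± 0.00289, rank 36 of 51. *Eif4ebp1* was at 0.0626 ± 0.0035 (rank 20), *Eif4ebp2* at 0.0316 ± 0.00203 (rank 30) and *Eif4ebp3* at 0.0129 ± 0.0014 (rank 44), with no overlap among the 3 4E-BPs in these 8 libraries. The 3 eIF2 subunits lay near each other, *Eif2s2* at 0.0444 ± 0.0029 above *Eif2s1* at 0.0299 ± 0.00421 and *Eif2s3x* at 0.0299 ± 0.00222. *Eif2b3*, the gamma subunit of eIF2B, was at 0.00439 ± 0.000697, against 0.0236 to 0.0492 for the means of the other 4 eIF2B genes. Levels per kb depend on the annotated exon length, which is 6520 bases for *Eif2b3* and 1885 to 2599 for the other 4. Before division by length, the mean RQ of *Eif2b3* was 0.0286, against 0.0482 to 0.128 for the others.

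**Figure D1:**
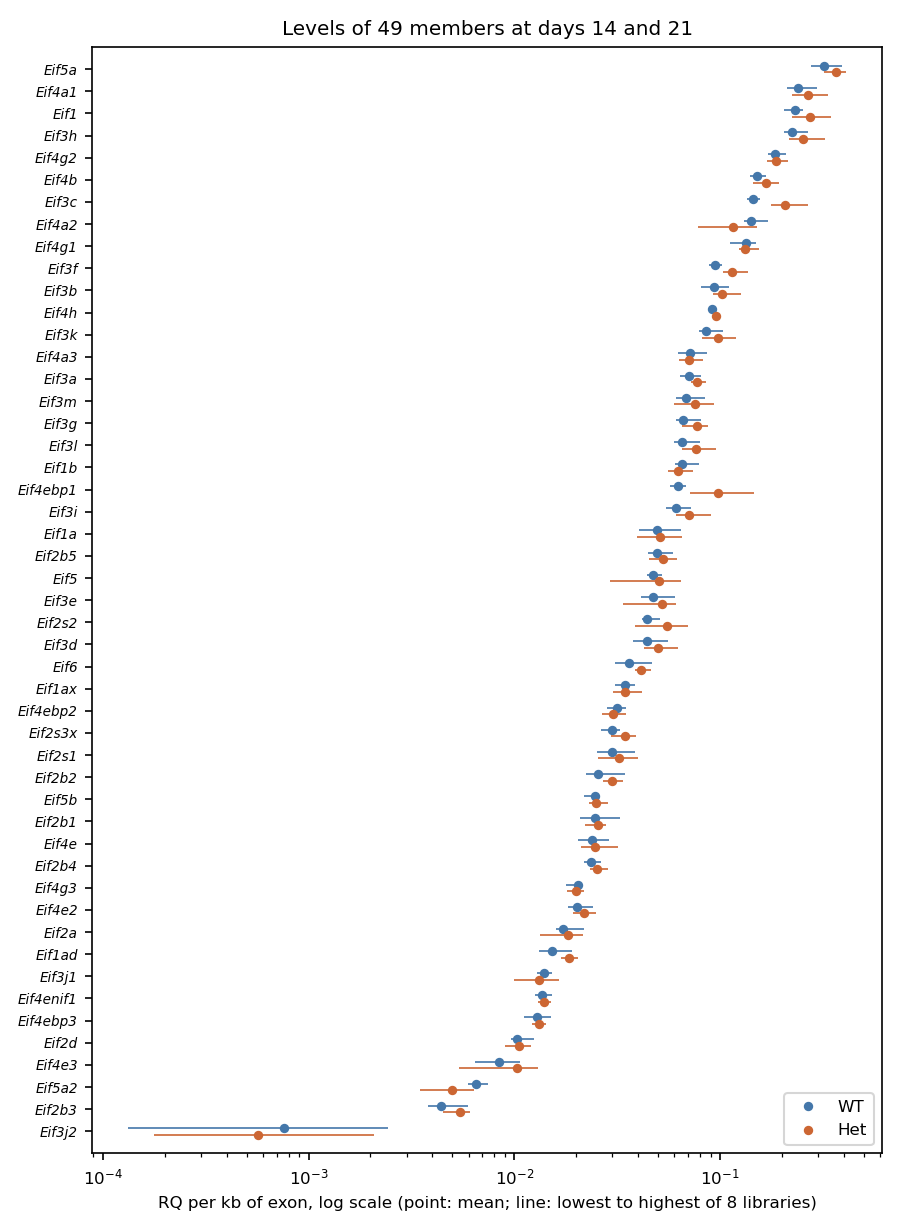
RQ per kb of exon (log axis) of the 49 members tested, at days 14 and 21; points are means of 8 libraries, lines run from the lowest to the highest, WT in blue and Het in orange. *Eif5a* leads the order in WT, and *Eif3c*, *Eif3f* and *Eif4ebp1* have a Het line that lies wholly above the WT line.

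The first comparison asked which initiation genes differed between Het and WT OBs in the mature cultures of days 14 and 21. In Het, 12 members were higher and 1 was lower, and 36 did not pass. The 26.5% called compares with 16.1% of the 19839 genes tested. For higher calls alone the background was 7.26%, and for lower calls 8.88%. The median log2 fold change of the members was 0.11 and that of all genes -0.05, and 39 of the 49 members had a positive value. The effects were small: only *Eif4ebp1* and *Eif3c* passed 0.5 on the log2 scale. By complex, 2 of 3 eIF2 genes, 1 of 5 eIF2B genes, 4 of 14 eIF3 genes, 1 of 15 tested eIF4 genes and 4 of 12 tested others were higher. *Eif5a2*, in the last group, was lower.

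**Figure D2:**
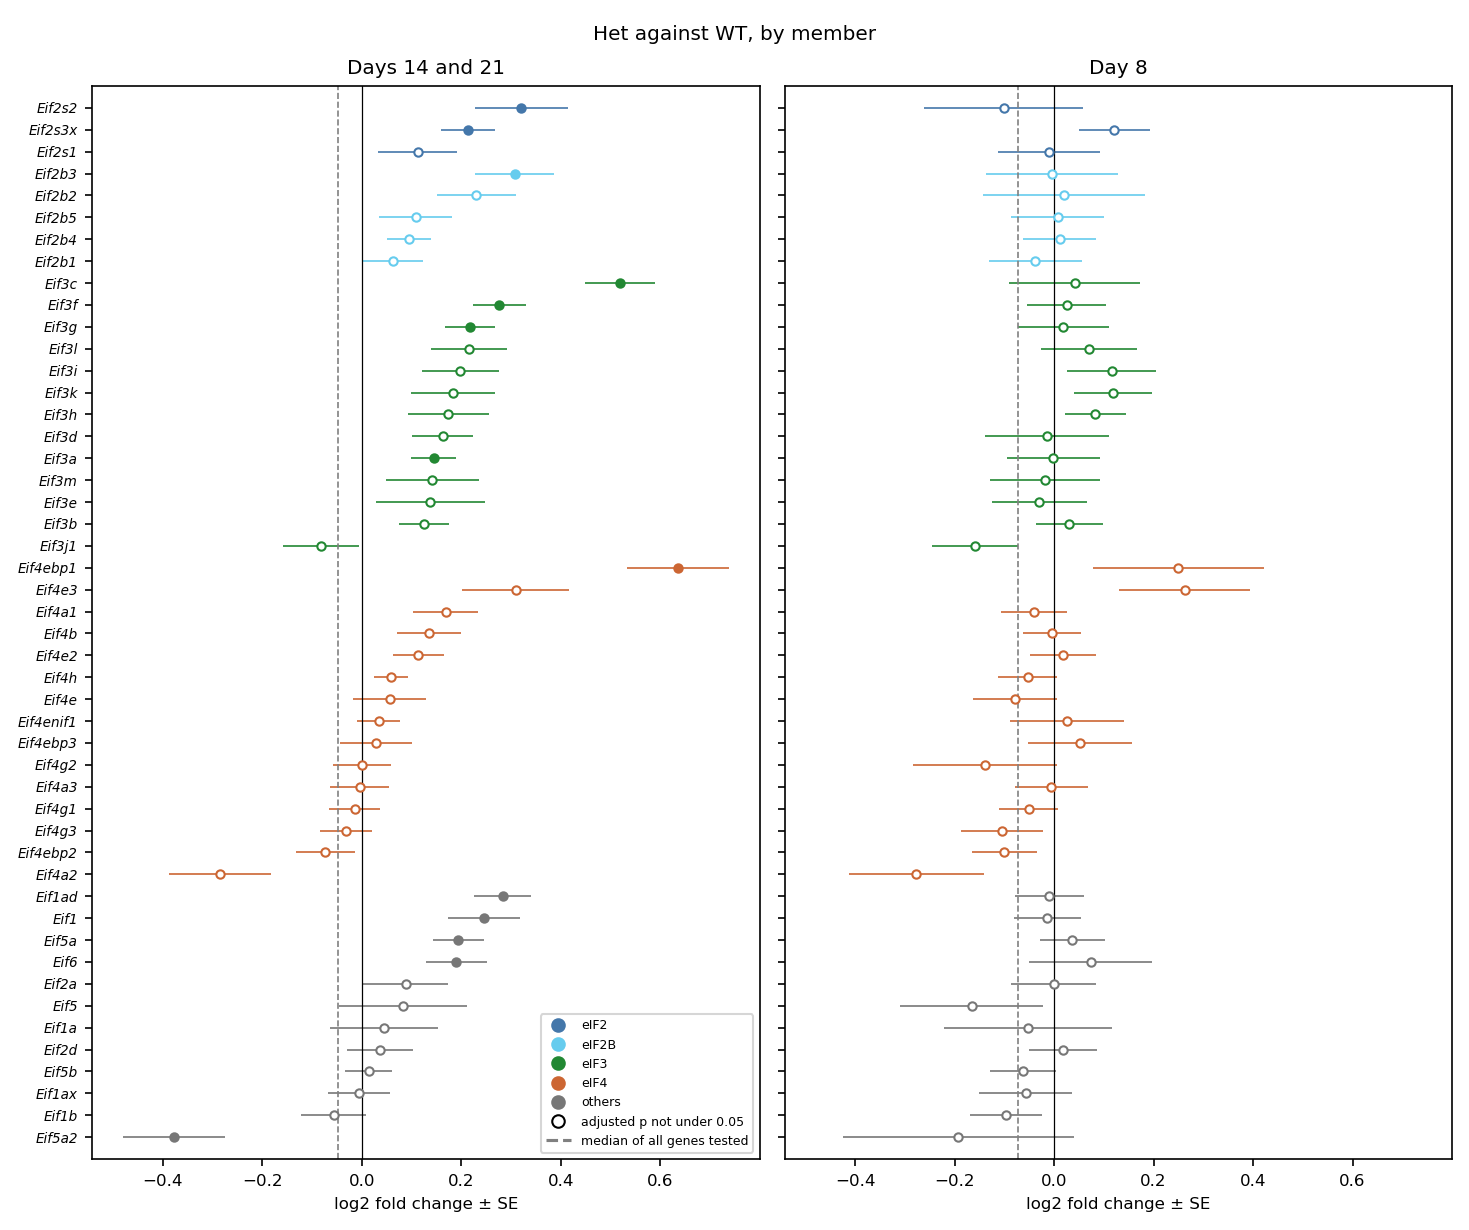
Log2 fold change (Het against WT) of 48 members with its standard error, at days 14 and 21 (left) and at day 8 (right), grouped by complex; *Eif3j2* is left out because of its low counts. Filled points have an adjusted p under 0.05 and the dashed line is the median of all genes tested: 13 points are filled on the left and none on the right.

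*Eif4ebp1* (ENSMUSG00000031490.6, chr8:27260329-27276674, plus strand), the 4E-BP known as a target of the stress factor ATF4, rose most. In WT at day 14 its RQ was 0.15, 0.139, 0.13 and 0.136 in replicates 1 to 4, and at day 21 it was 0.143, 0.141, 0.136 and 0.125. In Het at day 14 it was 0.157, 0.32, 0.212 and 0.215, and at day 21 it was 0.218, 0.195, 0.205 and 0.188. The genotypes did not overlap, and the day 14 library of replicate 1 was closest to WT while that of replicate 2 was highest. The log2 fold change was 0.64 (SE 0.10, adjusted p 0.00162, edgeR). The ratio of mean RQ was 1.28 in replicate 1 and 1.65 in replicates 2 to 4, and it was 1.63 at day 14 and 1.48 at day 21. The call was lost without replicate 4 (adjusted p 0.0592) and at day 14 alone (0.135).

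The other 4E-BPs did not pass. *Eif4ebp2*, the form most studied in neurons, had an RQ of 0.164 to 0.203 (median 0.185) in WT and 0.155 to 0.201 (median 0.172) in Het, and the groups overlapped. Its log2 fold change was -0.07 (SE 0.06, adjusted p 0.441), and replicate 1 differed in direction from the rest, with a Het to WT ratio of 1.17 against 0.887 in replicates 2 to 4. Without replicate 1 the test called it lower (log2 fold change -0.17, adjusted p 0.00263). *Eif4ebp3* had an RQ of 0.00835 to 0.0112 in WT and 0.00907 to 0.0106 in Het, with a log2 fold change of 0.03 (SE 0.07, adjusted p 0.846). In the annotation 67.3% of its exon bases are shared with a readthrough transcript on the same strand, so its count is uncertain.

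**Figure D3:**
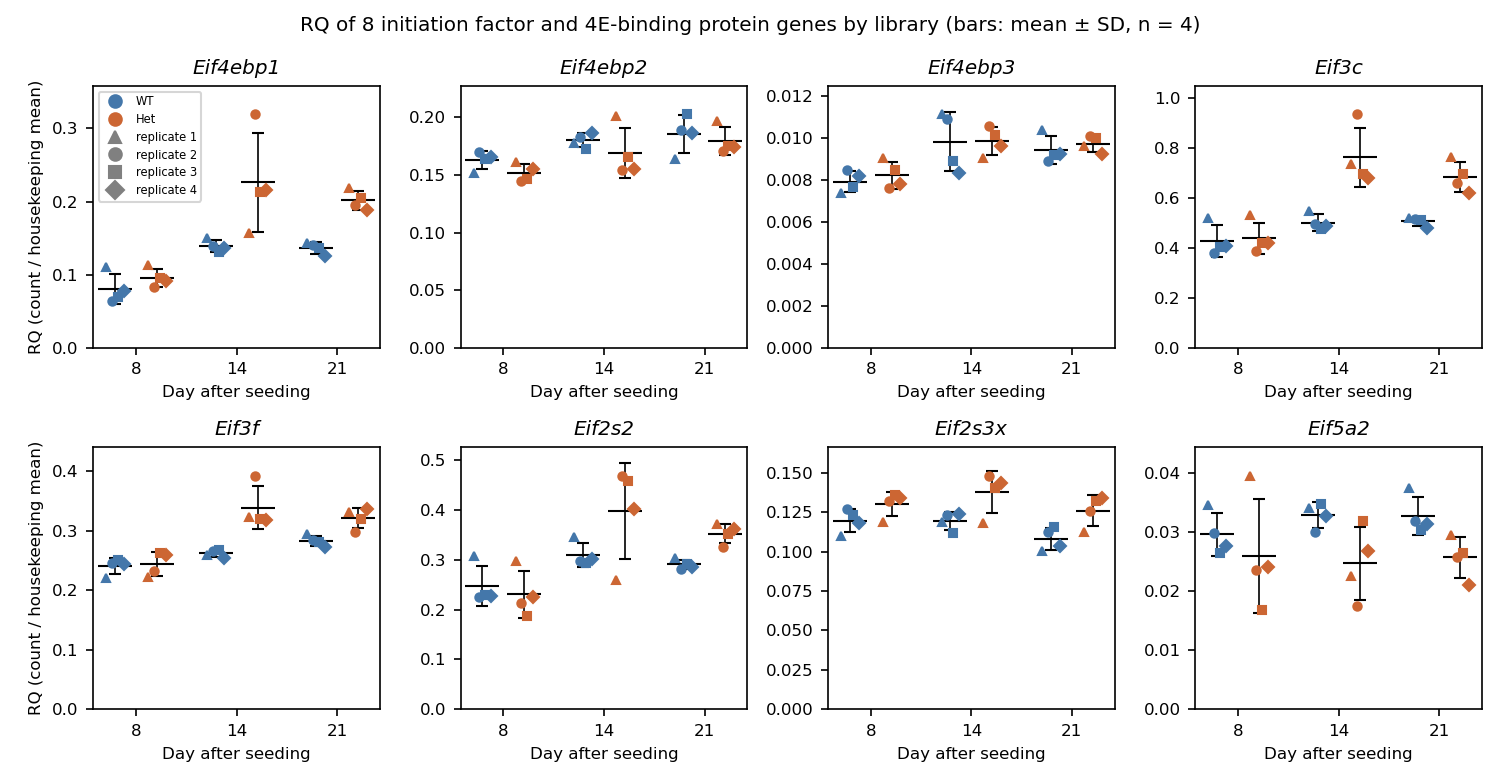
RQ of 8 members in each of the 24 libraries by day after seeding; WT in blue, Het in orange, marker shape gives the replicate, and bars are mean ± SD (n = 4). *Eif4ebp1*, *Eif3c* and *Eif3f* are higher in every Het than in every WT library at days 14 and 21, and *Eif4ebp2* and *Eif4ebp3* overlap.

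Among the eIF3 subunits, which scaffold the initiation complex, *Eif3c* (ENSMUSG00000030738.11, chr7:126546455-126566411, minus strand) changed most. In WT its RQ was 0.55, 0.495, 0.475 and 0.487 at day 14 and 0.52, 0.515, 0.514 and 0.479 at day 21, in replicate order. In Het it was 0.738, 0.937, 0.696 and 0.681 at day 14 and 0.763, 0.662, 0.696 and 0.622 at day 21. The lowest Het library lay above the highest WT library. The log2 fold change was 0.52 (SE 0.07, adjusted p 0.000413), with nearly the same ratio in replicate 1 (1.40) as in replicates 2 to 4 (1.45). It was called in 28 of 29 other settings, the exception being day 14 alone (adjusted p 0.0795).

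*Eif3f*, a subunit with a deubiquitinase-like fold, was the third gene with no overlap. Its RQ was 0.255 to 0.294 (median 0.27) in WT and 0.298 to 0.393 (median 0.322) in Het, a log2 fold change of 0.28 (SE 0.05, adjusted p 0.0046). *Eif3g*, an RNA-binding subunit, had an RQ of 0.121 to 0.16 in WT and 0.13 to 0.174 in Het (0.22, SE 0.05, adjusted p 0.00984). *Eif3a*, the large core subunit, had 0.56 to 0.703 in WT and 0.633 to 0.75 in Het (0.14, SE 0.05, adjusted p 0.0406). These last 2 overlapped between genotypes, although *Eif3g* was higher in Het in 8 of 8 pairs of the same day and replicate. With the replicate block *Eif3l* (0.21, adjusted p 0.00574), *Eif3d* (0.16, adjusted p 0.0106), *Eif3i* (0.20, adjusted p 0.0357) and *Eif3k* (0.18, adjusted p 0.0396), further subunits, were called as well. Across the 14 eIF3 genes the median log2 fold change was 0.17 and 12 were positive. The exceptions were *Eif3j1* and *Eif3j2*, the loosely bound subunit and its copy. In all, Het lay wholly above WT in 3 of the 51 members and wholly below in none, where 0.398% of all genes tested were wholly above and 0.524% wholly below.

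Of the eIF2 subunits, *Eif2s2* (beta) and *Eif2s3x* (gamma) were higher in Het and *Eif2s1* (alpha, the subunit that stress kinases phosphorylate) did not pass. *Eif2s2* (ENSMUSG00000074656.12, chr2:154871410-154892935, minus strand) had an RQ of 0.282 to 0.345 (median 0.296) in WT and 0.26 to 0.469 (median 0.367) in Het. The lowest Het value, 0.26, was replicate 1 at day 14, below all 8 WT libraries, and the other 7 Het libraries lay at 0.326 or more. The log2 fold change was 0.32 (SE 0.09, adjusted p 0.0288), and the ratio was 0.975 in replicate 1 and 1.35 in replicates 2 to 4. *Eif2s1* had 0.125 to 0.191 in WT and 0.126 to 0.197 in Het, with a log2 fold change of 0.11 (SE 0.08, adjusted p 0.361). Without replicate 1 it was called higher (0.23, adjusted p 0.00149).

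*Eif2s3x*, on the X chromosome (ENSMUSG00000035150.15, chrX:94188707-94212862, minus strand), had an RQ of 0.101 to 0.124 (median 0.114) in WT and 0.113 to 0.149 (median 0.133) in Het. Its log2 fold change was 0.21 (SE 0.05, adjusted p 0.0147). RNA of Y-linked genes moved with genotype: the Y-linked paralog *Eif2s3y* had an RQ of 0.057 to 0.0793 in WT and 0.0314 to 0.0632 in Het at the same days, and all 4 Y-linked genes examined were called lower in Het. *Xist*, made from the inactive X, was at 0.389 to 0.762 in WT and 0.316 to 0.882 in Het and was not called. The sex of the pooled pups is not given in the sources used here, and its part in the *Eif2s3x* difference was not tested.

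eIF2B, the exchange factor of eIF2, had 1 of its 5 genes called (20%, beside 16.1% of all genes tested). *Eif2b3* had an RQ of 0.0248 to 0.039 (median 0.0277) in WT and 0.0292 to 0.0397 (median 0.0359) in Het, and Het was higher in 8 of 8 pairs. Its log2 fold change was 0.31 (SE 0.08, adjusted p 0.017). The other 4 had positive values without passing. With the replicate number as a block, *Eif2b2* was also called (0.24, adjusted p 0.00788, where 23.6% of all genes were called).

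The remaining eIF4 genes did not pass. They include *Eif4e* (0.06, SE 0.07, adjusted p 0.656) and the 3 eIF4G genes, whose log2 fold changes lay between -0.03 and 0.00. The values farthest from 0 were those of *Eif4e3*, an atypical cap-binding protein (0.31, SE 0.11, adjusted p 0.0599), and of the helicase *Eif4a2* (-0.29, SE 0.10, adjusted p 0.0666). With the replicate block *Eif4e3* was called (adjusted p 0.036). Of its exon bases, 14.8% are shared with another gene on the same strand.

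Outside these complexes, *Eif1ad*, a nuclear protein with an eIF1A-like domain, had an RQ of 0.0368 to 0.053 (median 0.0409) in WT and 0.0469 to 0.0571 (median 0.0519) in Het. The log2 fold change was 0.28 (SE 0.06, adjusted p 0.0056), although 15.3% of its exon bases overlap *Banf1* on the opposite strand. *Eif1* was higher in 8 of 8 pairs (0.25, SE 0.07, adjusted p 0.0304). *Eif5a* (0.19, SE 0.05, adjusted p 0.0196) and *Eif6*, which keeps the large ribosomal subunit apart until needed (0.19, SE 0.06, adjusted p 0.0437), were higher by less. Against these, *Eif5a2*, the restricted paralog of *Eif5a*, fell. Its RQ was 0.0299 to 0.0373 (median 0.0322) in WT and 0.0174 to 0.0319 (median 0.0261) in Het, lower in 8 of 8 pairs. The log2 fold change was -0.38 (SE 0.10, adjusted p 0.0216), so the 2 eIF5A genes were called in opposite directions.

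How many members were called depended on the libraries. Without replicate 1, 30 of 49 were called (27 higher and 3 lower), with 39.4% of all genes. Without replicate 2, 3 were called (1.63% of all genes), without replicate 3, 2 (1.29%), and without replicate 4, 1 (0.702%). *Eif3c* was called in all 4, *Eif4ebp1* in the first 3 and *Eif3f* in the first 2. With any 1 of the 16 libraries left out, 9 to 18 were called, beside 10.5% to 24.3% of all genes. *Eif4ebp1*, *Eif3c*, *Eif3f*, *Eif3g*, *Eif2b3*, *Eif2s3x*, *Eif1ad*, *Eif5a* and *Eif5a2* kept their calls in all 16. *Eif2s2* lost its call in 9 of 16 (adjusted p up to 0.0603), those without replicates 2, 3 and 4 of either genotype at day 14, replicates 2 and 4 of WT at day 21 and replicate 4 of Het at day 21. *Eif1* lost it in 5 (up to 0.06), those without replicates 2, 3 and 4 of WT at day 14, replicate 2 of WT at day 21 and replicate 3 of Het at day 21. *Eif3a* (up to 0.0809) kept its call in 4, without replicate 1 of WT at day 14, replicates 1 and 4 of Het at day 14 and replicate 1 of Het at day 21. *Eif6* (up to 0.0892) kept it in 4 as well, without replicate 1 of WT at day 14 or day 21, replicate 3 of Het at day 14 and replicate 1 of Het at day 21. DESeq2's Wald test called 21 (19 higher and 2 lower, with 23.1% of all genes), and edgeR with TMM scaling 27 (26 higher and 1 lower, with 20.2%).

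The start regions of 4 members are shown, 3 that were higher in Het and 1 that fell over culture, each as its stretch outside annotated exons. RefSeq start sites on GRCm38.p6 gave windows of 250 bases before the start for 39 of the 51 members (51 windows in all), *Eif4ebp1* not among them. Letters were searched on both strands and capitals mark a match: TGATGNAAN, the element bound by ATF4 with C/EBP factors, CACGTG, the E-box bound by MYC-type factors, and CCGGAAG, an ETS-type core. *Eif3c* (chr7:126566412-126566616, minus strand) is the called member with the largest rise that has a window, and its match is the ETS-type core. *Eif3f* (chr7:108934165-108934414, plus strand) is the other eIF3 gene with no overlap and holds an E-box. *Eif2s3x* (chrX:94212710-94212770, minus strand) holds the one ATF4-type match among the member windows, inside an intron of the gene model. *Eif4g1* (chr16:20672477-20672722, plus strand) is the scaffold that fell over the days of culture and also holds an E-box. Its stretch, too, lies inside an intron of the gene model.
Eif3c: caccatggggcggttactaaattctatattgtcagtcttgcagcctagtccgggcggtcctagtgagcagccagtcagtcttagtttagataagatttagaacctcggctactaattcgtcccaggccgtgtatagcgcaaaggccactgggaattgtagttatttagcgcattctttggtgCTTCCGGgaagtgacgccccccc
Eif3f: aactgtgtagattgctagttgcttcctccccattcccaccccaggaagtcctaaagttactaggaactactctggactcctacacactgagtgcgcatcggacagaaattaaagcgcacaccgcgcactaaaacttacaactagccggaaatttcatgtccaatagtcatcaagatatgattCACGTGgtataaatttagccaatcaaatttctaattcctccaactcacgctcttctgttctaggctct
Eif2s3x: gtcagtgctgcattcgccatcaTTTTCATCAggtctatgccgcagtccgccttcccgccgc
Eif4g1: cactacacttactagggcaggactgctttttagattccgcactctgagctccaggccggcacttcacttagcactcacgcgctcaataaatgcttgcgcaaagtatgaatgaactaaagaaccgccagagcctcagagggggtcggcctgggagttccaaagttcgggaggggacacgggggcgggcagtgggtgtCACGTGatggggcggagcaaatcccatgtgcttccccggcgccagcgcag
The ATF4-type element was in 1 of 51 member windows (1.96%) and in 3.44% of 32851 windows of all genes. The E-box was in 11 of 51 (21.57%, 9 genes) and in 6.02% of all windows. The ETS-type core was in 12 of 51 (23.53%, 12 genes) and in 6.91% of all. A second ETS-type core of *Eif3c* lies 34 bases before the RefSeq start, inside an exon of the gene model. Some members have several windows that overlap. A match is only a string of letters, and its absence from a window says nothing about a factor.

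The balance of 4E-BPs to their partner was set out per library, as the summed reads per kb of the 3 4E-BP genes over the reads per kb of *Eif4e*. In WT the ratio was 2.91 ± 0.227 at day 8, 4.17 ± 0.285 at day 14 and 4.9 ± 0.461 at day 21 (SD, n = 4). In Het it was 3.3 ± 0.295, 5.61 ± 1.36 and 5.87 ± 0.424 on the same days. Over days 14 and 21 it was 5.74 ± 0.942 in Het and 4.54 ± 0.53 in WT (n = 8 each, exact permutation test, two-sided, p = 0.00591). Het at day 14 ranged from 4.36 to 7.49, overlapping WT. *Eif4ebp1* made up 68.7 ± 4.93% of 4E-BP reads per kb in Het and 58.4 ± 1.55% in WT at these days (exact permutation p = 0.000311, where the smallest possible is 0.000155). The permutation moved the genotype labels freely over the libraries of both days. Its p-values therefore take no account of day or of the pairing by replicate number. These 2 measures were compared, and both contain *Eif4ebp1*, so they are not independent of its fold change. The ratio is one of RNA, and phosphorylation of the proteins was not measured. Its level depends on the annotated exon lengths, 6008 bases for *Eif4e* and 2196, 5784 and 744 for *Eif4ebp1*, *Eif4ebp2* and *Eif4ebp3*.

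**Figure D4:**
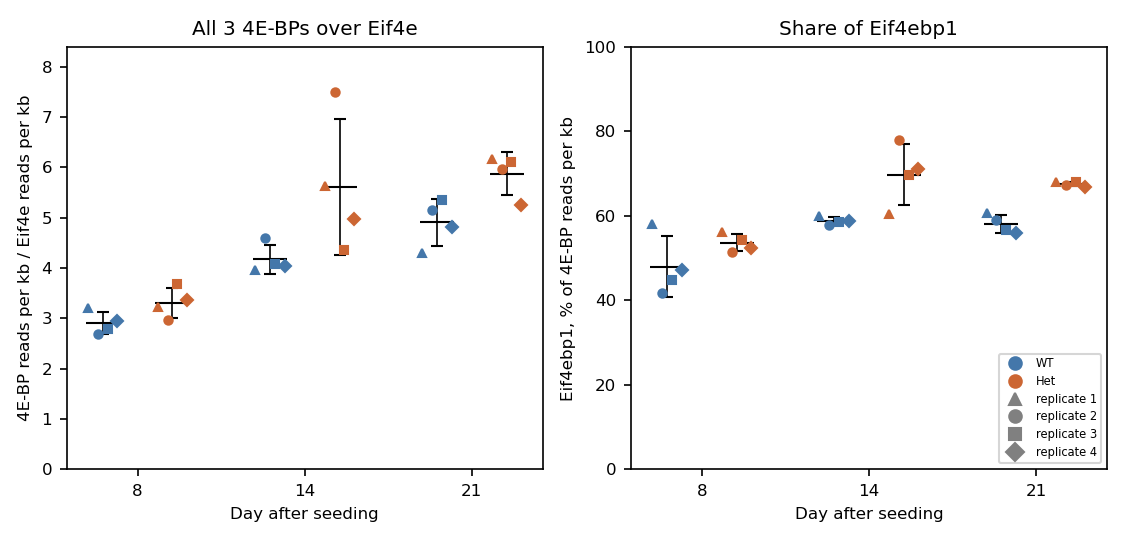
Left, reads per kb of the 3 4E-BP genes over those of *Eif4e*; right, *Eif4ebp1* as a percent of 4E-BP reads per kb; each point is 1 of 24 libraries by day after seeding, with mean ± SD (n = 4). The WT mean ratio goes from 2.91 at day 8 to 4.9 at day 21 and the Het mean from 3.3 to 5.87.

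At day 8 the question was whether the genotypes already differed before the matrix matured. No member was called (0 of 49, and 0% of the 18222 genes tested), none had an unadjusted p under 0.05, and DESeq2 called none of the members (2.39% of all genes). The median log2 fold change of the members was -0.01, against -0.07 for all genes. *Eif4ebp1* RQ in WT was 0.11, 0.0643, 0.069 and 0.0779, and in Het 0.112, 0.0825, 0.0958 and 0.0906. Replicate 1 was nearly level between genotypes and the other 3 were higher in Het, for a log2 fold change of 0.25 (SE 0.17, adjusted p 0.697). *Eif3c* was at 0.522, 0.378, 0.402 and 0.406 in WT and 0.53, 0.387, 0.418 and 0.421 in Het, with replicate 1 above the others in both genotypes. Without replicate 1, 3 members were called, beside 18.7% of all genes: *Eif4ebp1* was higher (0.35, adjusted p 0.0184), and *Eif4a2* (-0.40, adjusted p 0.00783) and *Eif3j1* (-0.24, adjusted p 0.021) were lower.

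Whether the Het effect at days 14 and 21 differed from that at day 8 was tested directly. No member passed (0 of 49, where 0.171% of 20434 genes did, 0.166% higher and 0.00489% lower), 5 had an unadjusted p under 0.05, and DESeq2 called no member (0.568% of all genes). The difference for *Eif4ebp1* was 0.39 (SE 0.20, adjusted p 0.947). With 2-fold changes simulated in 200 genes this test recovered 60%, and with 1.5-fold changes 4%, so small effects were mostly not detected in the simulation. It gave every gene the same spread between libraries beyond counting noise and had no replicate structure. These shares may therefore not hold for the members. Without replicate 1, 9 members were called, all with a larger Het effect late, beside 4.72% of all genes. They were *Eif2s2* (0.55), *Eif3c* (0.48), *Eif2b3* (0.39), *Eif1ad* (0.38), *Eif3e* (0.36), *Eif3m* (0.33), *Eif4a1* (0.31), *Eif2s1* (0.30) and *Eif2a* (0.27).

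The third comparison followed the members over culture, days 14 and 21 against day 8, over both genotypes. On the housekeeping scale 18 members rose and 10 fell (57.1%, where 58.3% of all genes were called, 40.9% higher and 17.4% lower). The split depends on the scale: with TMM scaling 8 rose and 24 fell (60% of all genes called), and with total counts 6 rose and 30 fell (64.8%). The median of all genes was 0.16 on the housekeeping scale, 0.01 with TMM and -0.15 with total counts, and 20 of the 49 members lay above it and 29 below on the housekeeping scale. Calls held in the main test and all 13 other settings for 7 members. *Eif4ebp1*, *Eif4e3*, *Eif1*, *Eif2s2*, *Eif3c* and *Eif1b* rose and *Eif4g1* fell. OB markers rose over the same days (6 of 6 called), and so did 5 of 6 macrophage and osteoclast markers, while 3 of 3 chondrocyte markers fell. The chondrocyte markers summed to a median RQ of 23.5 at day 8 and 4.6 at day 21 in WT, and of 11.6 and 1.25 in Het. The part of these cell types in the members' changes was not tested. The later libraries lay wholly above day 8 in 4 of the 51 members, *Eif4ebp1*, *Eif1*, *Eif1b* and *Eif3h*, and wholly below in none, beside 11% and 2.7% of all genes. Calls that ended when a replicate number was left out were those of *Eif3a* and *Eif5b* without replicates 1, 2 or 4, *Eif2s1* without replicate 2, *Eif5a* without 2 or 3, *Eif3k* without 2 or 4, *Eif2b5*, *Eif3d* and *Eif4g2* without 2, 3 or 4, *Eif2a*, *Eif3j1*, *Eif4a2* and *Eif6* without 3 or 4, and *Eif4g3* without 4 (adjusted p 0.0505 to 0.155). In Het alone, where 40.3% of all genes were called, *Eif4g1* was the only 1 of the 10 falls still called. The other 9, *Eif2s1*, *Eif2b1*, *Eif6*, *Eif4e2*, *Eif3d*, *Eif4g3*, *Eif3a*, *Eif5a* and *Eif5b*, were not (adjusted p 0.147 to 0.636), and whether the change differed between genotypes was not tested.

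**Figure D5:**
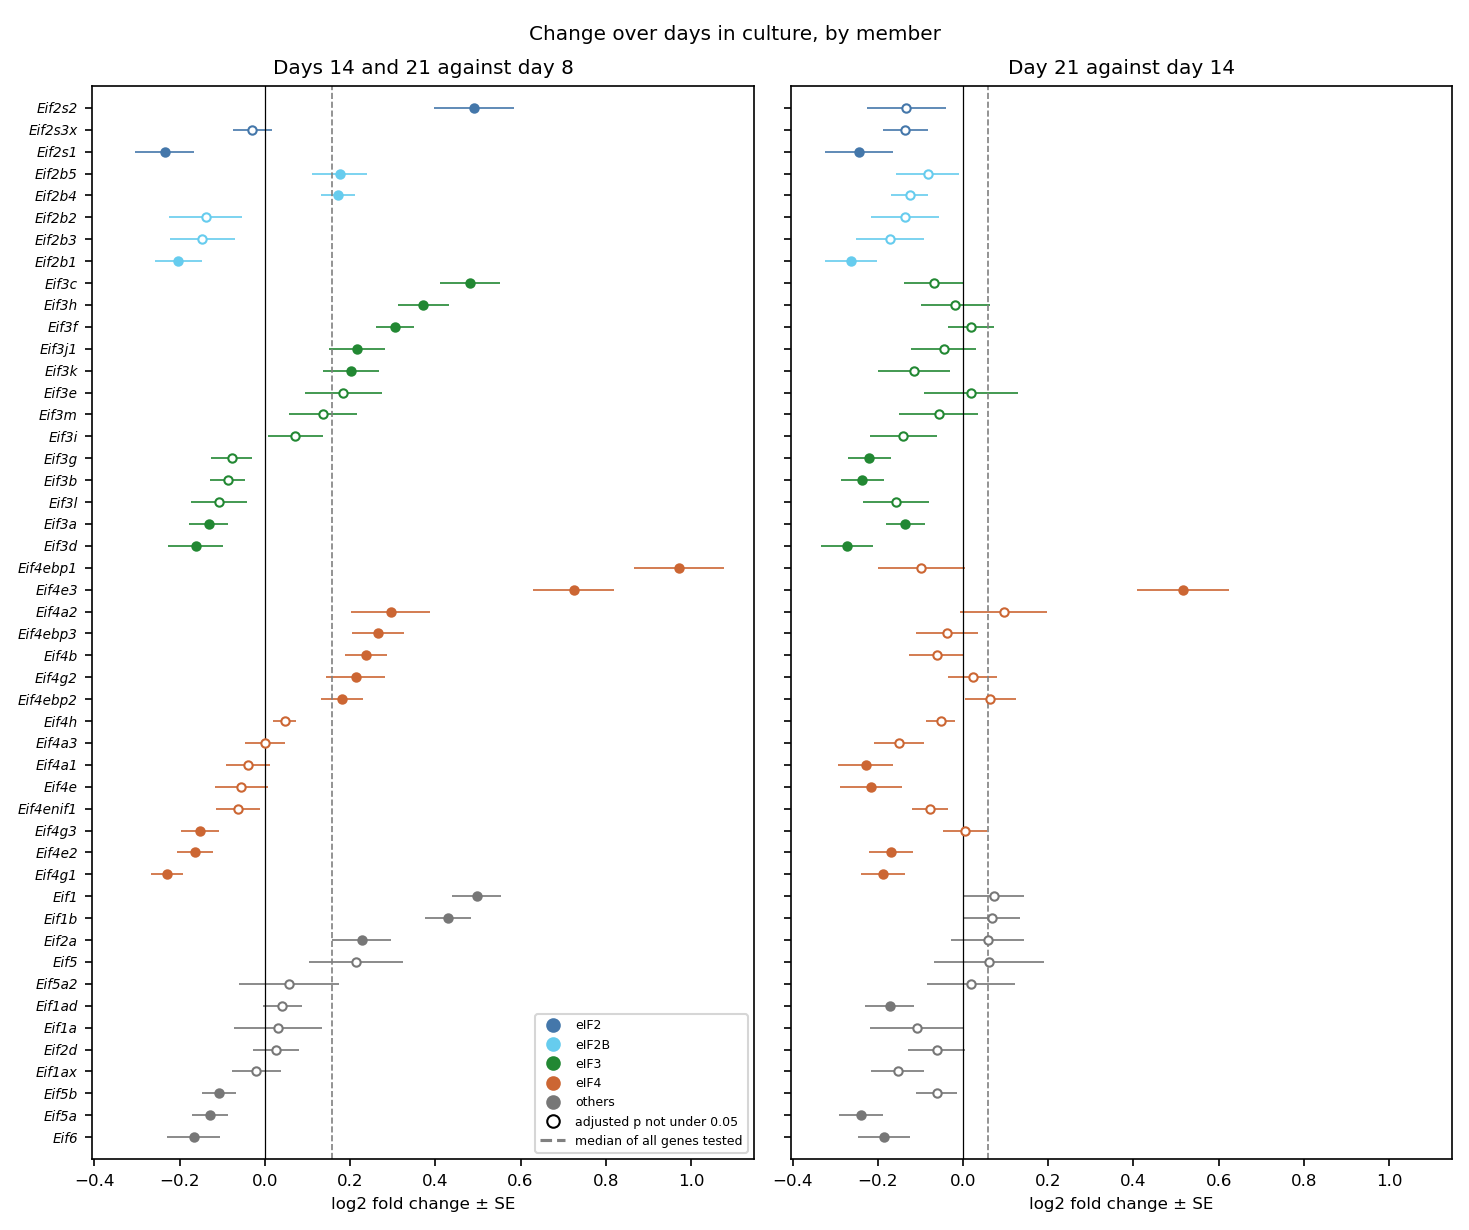
Log2 fold change of 48 members with its standard error, days 14 and 21 against day 8 (left) and day 21 against day 14 (right), on the housekeeping scale; filled points have an adjusted p under 0.05 and the dashed line is the median of all genes tested, 0.16 on the left and 0.06 on the right. *Eif4ebp1* and *Eif4e3* lie farthest right in the left panel, and *Eif4e3* is the only filled point right of 0 in the right panel.

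*Eif4ebp1* had an RQ of 0.0643 to 0.112 (median 0.0866) at day 8 and 0.125 to 0.32 (median 0.153) later, without overlap. Its log2 fold change was 0.97 (SE 0.11, adjusted p 6.39e-08), and its mean rose 1.71 times in WT and 2.24 times in Het. *Eif4ebp2* (0.18, SE 0.05, adjusted p 0.00317) and *Eif4ebp3* (0.26, SE 0.06, adjusted p 0.000789) also rose on the housekeeping scale, but near the median of all genes. With total counts both had the opposite sign, and *Eif4ebp2* was then called lower (-0.12, adjusted p 0.0438). *Eif4e3* went from 0.0114 to 0.018 (median 0.0136) up to 0.0135 to 0.0326 (median 0.0251), a log2 fold change of 0.72 (SE 0.10, adjusted p 1.05e-06). *Eif4e2*, a cap-binding protein linked to translational repression, fell (-0.16, SE 0.04, adjusted p 0.00198), and *Eif4e* itself did not pass (-0.06, SE 0.06, adjusted p 0.471). With TMM scaling *Eif4e* was called lower as well (-0.20, adjusted p 0.00175), and *Eif4e3* was still called higher (0.57, adjusted p 0.000114). The differences between the 3 cap-binding genes were not tested.

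The scaffold genes of eIF4G were split as well. *Eif4g1* had an RQ of 1.06 to 1.17 (median 1.14) at day 8 and 0.822 to 1.14 (median 0.945) later, a log2 fold change of -0.23 (SE 0.04, adjusted p 2.68e-05). *Eif4g3* fell (-0.15, SE 0.04, adjusted p 0.00545). *Eif4g2*, which lacks the eIF4E-binding part and serves cap-independent initiation, rose on this scale (0.21, SE 0.07, adjusted p 0.0115), with a value of 0.08 with TMM and -0.08 with total counts, neither called.

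Subunits of the same complex moved in different directions. *Eif2s2* had an RQ of 0.187 to 0.308 (median 0.226) at day 8 and 0.26 to 0.469 (median 0.315) later (0.49, SE 0.09, adjusted p 0.000124). *Eif2s1* had 0.154 to 0.215 (median 0.179) and then 0.125 to 0.197 (median 0.149), a log2 fold change of -0.24 (SE 0.07, adjusted p 0.00595), and *Eif2s3x* did not pass. *Eif2s1* lost its call without replicate 2 (adjusted p 0.0588). In eIF2B, *Eif2b4* and *Eif2b5* rose by 0.17 and 0.18 on the housekeeping scale alone, at about the median of all genes, and with total counts both were called lower (each -0.13, adjusted p 0.00474 and 0.0279). *Eif2b1* fell (-0.20, SE 0.06, adjusted p 0.00351). With the replicate block *Eif2b2* (-0.13, adjusted p 0.0285) and *Eif2b3* (-0.14, adjusted p 0.0167) were called lower too.

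In eIF3, 5 genes rose and 2 fell. *Eif3c* rose most (0.48, SE 0.07, adjusted p 4.98e-06), from 0.378 to 0.53 (median 0.412) up to 0.475 to 0.937 (median 0.586), and its mean rose 1.18 times in WT and 1.65 times in Het. *Eif3h* (0.37, SE 0.06, adjusted p 1.84e-05) and *Eif3f* (0.31, SE 0.04, adjusted p 4.08e-06) followed, and both missed the threshold with total counts (adjusted p 0.212 and 0.991). *Eif3k* and *Eif3j1* rose on the housekeeping scale alone, and 19% of the exon bases of *Eif3j1* overlap *Spg11* on the opposite strand. With the replicate block *Eif3l* was called lower (-0.11, adjusted p 0.00896). *Eif3d*, the cap-binding subunit of eIF3, fell (-0.16, SE 0.06, adjusted p 0.0349), as did *Eif3a* (-0.13, SE 0.04, adjusted p 0.0148). For *Eif3d*, 43.3% of the exon bases overlap an antisense gene, and the strand setting of the count is not given in the sources used here.

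*Eif1*, with an RQ of 0.343 to 0.399 (median 0.379) at day 8 and 0.428 to 0.725 (median 0.52) later, did not overlap between the stages (0.50, SE 0.06, adjusted p 1.75e-07). Its paralog *Eif1b* rose too (0.43, SE 0.05, adjusted p 6.09e-07), with 12.7% of its exon bases overlapping an antisense gene. *Eif6* (-0.17, SE 0.06, adjusted p 0.0277), *Eif5a* (-0.13, SE 0.04, adjusted p 0.011) and *Eif5b*, which joins the ribosomal subunits (-0.11, SE 0.04, adjusted p 0.024), fell. *Eif5b* shares 16.8% of its exon bases with *Rev1* on the opposite strand. Without replicate 1 the value of *Eif5b* was -0.06 (adjusted p 0.13) and that of *Eif3a* -0.07 (adjusted p 0.0542).

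Between day 14 and day 21, 1 member rose and 13 fell (28.6%, with 19.3% of all genes called, 13.3% higher and 5.94% lower). The median of the members was -0.10 and that of all genes 0.06, and 41 of 49 members lay below the latter. Of the macrophage and osteoclast markers, 4 of 6 were higher at day 21, with a median summed RQ of 2.37 at day 14 and 5.67 at day 21 in WT and of 6.03 and 9.37 in Het, and their part in the members' changes was not tested. *Eif4e3* rose from 0.0135 to 0.0257 (median 0.018) at day 14 to 0.0229 to 0.0326 (median 0.0267) at day 21, a log2 fold change of 0.52 (SE 0.11, adjusted p 0.00321). *Eif3d* fell most, from 0.22 to 0.309 (median 0.25) down to 0.187 to 0.249 (median 0.214), by 0.27 on the log2 scale (SE 0.06, adjusted p 0.00513). *Eif3b*, the eIF3 subunit with a propeller fold, went from 0.319 to 0.425 (median 0.354) to 0.271 to 0.319 (median 0.309), and fell by 0.24 (SE 0.05, adjusted p 0.00359).

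Other falls were those of *Eif2b1* (-0.26, adjusted p 0.00623), *Eif2s1* (-0.24, adjusted p 0.0415), *Eif5a* (-0.24, adjusted p 0.00402), *Eif4a1* (-0.23, adjusted p 0.0211), *Eif3g* (-0.22, adjusted p 0.00554), *Eif4e* (-0.22, adjusted p 0.0485) and *Eif4g1* (-0.19, adjusted p 0.0163). *Eif6*, *Eif1ad*, *Eif4e2* and *Eif3a* were also lower, with log2 fold changes of -0.19 to -0.14. They take in cap binding (*Eif4e*), the helicase (*Eif4a1*), the scaffold (*Eif4g1*), and subunits of eIF2, eIF2B and eIF3. Without replicate 1, 23 members were called (28.9% of all genes), without replicate 2, 3 (11.6%), without replicate 3, 6 (8.52%), and without replicate 4, 4 (8.58%). *Eif4e3* and *Eif3b* were called in all 4 of these. With the replicate block, 14 were called (23.1% of all genes), of which 11 were shared. *Eif1ad*, *Eif3a* and *Eif4e* were then lost (adjusted p 0.0643, 0.063 and 0.0512), and *Eif3l*, *Eif4a3* and *Eif2s3x* were gained (adjusted p 0.0238, 0.0438 and 0.046). In WT alone 3 were called (14.8% of all genes) and in Het alone 0 (0.374%, with 5 members at an unadjusted p under 0.05, edgeR). Whether the change differed between genotypes was not tested.

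The genes that act beside the members were listed by role, and those named here were chosen after their values were seen. In Het against WT at days 14 and 21, 7.26% of all genes were higher and 8.88% lower, and the lists hold few genes. Of 9 eIF2 kinase and phosphatase genes, 1 was higher and 1 lower in Het at days 14 and 21. *Ppp1r15a* (GADD34), which brings the phosphatase to eIF2, rose by 0.70 (SE 0.09, adjusted p 0.000194), and its effect was larger late than at day 8 (difference 0.85, SE 0.17, adjusted p 0.0473). *Eif2ak3* (PERK), the kinase of the endoplasmic reticulum, fell by 0.22 (SE 0.06, adjusted p 0.0147). Of 20 genes of mTORC1 and eIF4E control, 1 rose and 1 fell: *Sesn2*, an inhibitor of mTORC1, was at 0.32 (SE 0.09, adjusted p 0.0216) and *Rps6kb1*, the S6 kinase, at -0.22 (SE 0.05, adjusted p 0.0122). Of 18 initiation partners, 3 rose and none fell, the poly(A)-binding proteins *Pabpc1* (0.27) and *Pabpc4* (0.22) and the eIF5 mimic *Bzw2* (0.24). Of 12 elongation and termination genes, 5 rose and none fell, among them *Eef2* (0.26, SE 0.07, adjusted p 0.0162) and *Eef1a1* (0.26, SE 0.07, adjusted p 0.0228). At day 8 none of the 59 genes of these 4 lists was called.

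Over culture, the largest rise in these lists was that of *Cyfip2*, a partner that can bind eIF4E (log2 fold change 3.33 at days 14 and 21 against day 8, SE 0.17, adjusted p 1.05e-12), with a further 1.40 from day 14 to day 21 (adjusted p 4.41e-05). *Paip2*, which restrains poly(A)-binding protein, rose by 0.64 (SE 0.10, adjusted p 5.95e-06), *Ddit4*, a stress-induced brake on mTORC1, by 0.70 (SE 0.11, adjusted p 1.16e-05) and *Eef2k*, the kinase that slows elongation, by 0.78 (SE 0.10, adjusted p 1.26e-06). The helicase *Dhx29* fell by 0.51 (SE 0.06, adjusted p 1.02e-07). Macrophage and osteoclast markers rose over the same days (5 of 6 called). The part of cell composition in the changes of *Cyfip2* and the others was not tested. On the housekeeping scale 8 of 18 initiation partners, 8 of 20 mTORC1 genes, 4 of 12 elongation genes and 4 of 9 eIF2 kinase and phosphatase genes rose, and 3, 3, 4 and 2 fell, where 40.9% of all genes rose and 17.4% fell.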

How the data were processed

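Poly(A) RNA was sequenced from 24 cultures, 4 in each of 6 groups. The authors deposited raw counts per gene (55335 genes, with exon length), which per the labels were made with cutadapt 2.5, STAR 2.73a and featureCounts 1.6.4 of Subread on mm10. The deposited gene lengths were used only for values per kb. Strand setting and treatment of multiply mapped reads are not given in the sources used here.

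Counts were tested with edgeR 4.0.16 (glmQLFit and glmQLFTest, filterByExpr, R 4.3.3, limma 3.58.1) on the whole table. Library sizes came from the geometric mean of 4 housekeeping genes, as in the study, and p-values were adjusted by Benjamini-Hochberg over all genes tested, with a threshold of 0.05. Genotype was compared at days 14 and 21 together, with day in the model, and separately at day 8, and the 2 genotype effects were compared with each other. Culture time was compared as the later days against day 8 and as day 21 versus day 14, with genotype in the model. DESeq2 1.42.0, other scalings, no filter, left-out replicates and libraries, and a replicate block were alternatives. The leave-one-library-out fits were chosen after seeing the data. The members and the gene lists were chosen with earlier results of these data known. Values per library were given for the 3 4E-BPs, *Eif3c*, *Eif2s1*, *Eif2s3x* and up to 5 members with the largest called rise and fall per comparison.

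The test was run on simulated data with 200 changed genes. For Het against WT at days 14 and 21, 58% of 1.5-fold and 100% of 2-fold changes were recovered, and 17% and 88% at day 8. Every gene was simulated with the same spread between libraries beyond counting noise and without replicate structure, unlike the data. Same-numbered libraries of a day deviated together: their correlations of deviations from the group means were 0.237 to 0.775 (median 0.422, n = 12). For different numbers they were -0.632 to 0.469 (median -0.078, n = 36), so the ranges overlapped. The main fits had no replicate term. Replicate numbers paired the samples only in the replicate block and in the counts of pairs of the same day and replicate. No 2 libraries of a group agreed within sampling noise (smallest chi-square per degree of freedom 5.14 over 36 pairs). Depth was 17140202 to 59734231 counts per library.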

Additional observations from a re-analysis of the deposited data

Results flagged for a closer look

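In each group of 4 libraries, the highest or lowest RQ was set against its nearest neighbour, and a gap above Dixon's 95% limit, as a share of the group's range, was marked. Over the 19 members with per-library values this marked 12 of 114 groups, where chance alone marks about 1 in 20, and 11 of the 12 were a library of replicate 1.

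In Het at day 8, replicate 1 was the highest for *Eif2b1* (0.0865, next 0.0705) and *Eif2b3* (0.0438, next 0.0333). In Het at day 21 it was the highest for *Eif2b1* (0.0696, next 0.0587), *Eif3d* (0.249, next 0.217) and *Eif4ebp2* (0.197, next 0.175), and the lowest for *Eif4e3* (0.0252, next 0.0315). In Het at day 14 it was the highest for *Eif3b* (0.425, next 0.357) and the lowest for *Eif5a* (0.817, next 0.962). In WT it was the highest for *Eif2s2* at day 8 (0.308, next 0.229) and at day 14 (0.345, next 0.302), and for *Eif3d* at day 8 (0.309, next 0.248). The one mark outside replicate 1 was *Eif3c* in WT at day 21, where replicate 4 was lowest (0.479, next 0.514). The depth of the replicate 1 libraries was below that of the others (17140202 to 25825762 against 28159342 to 59734231 counts), and the part of depth in these marks was not tested. The labels do not tie replicate numbers to the study's pair of culture experiments, so the part of the experiment was not tested either.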

How the results depend on the processing

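For Het against WT at days 14 and 21, 13 members were called in the main test. TMM scaling gave 27, DESeq2 size factors 28, total counts 30, DESeq2's Wald test 21, and replicate 1 as a covariate 20. Day 14 alone gave 0 (12 with an unadjusted p under 0.05, edgeR) and day 21 alone 3. Leaving out 1 replicate number gave 1 to 30. At day 8 leaving out 1 number gave 0 to 3, for the difference between the 2 effects 0 to 9, and for days 14 and 21 against day 8 17 to 33 (28 in the main test). In Het alone the last gave 13. For day 21 against day 14 (14 in the main test), leaving out 1 number gave 3 to 23, no filter 6, WT alone 3 and Het alone 0. Fewer libraries entered each left-out or single-day fit, and the number of calls was lower in some of these fits and higher in others. The cause of these changes was not tested.

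With the replicate number as a block, 19 members were called at days 14 and 21, all 13 of the main test among them, 0 at day 8, 0 for the difference, 31 for days 14 and 21 against day 8 and 14 for day 21 against day 14. The calls it changed were given with their values beside each comparison, and it changed no other call. In Het against WT at days 14 and 21, *Eif4ebp2* changed sign with total counts (0.0198, main test -0.07), and *Eif4ebp3* ran from -0.0133 without replicate 3 to 0.1048 without replicate 1 and was -0.0028 without WT day 14 replicate 4, none of them called. Other members that were not called there also changed sign in some settings.

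No called member changed direction in Het against WT at days 14 and 21 (29 settings) or in day 21 against day 14 (13 settings), while 10 of 28 did with total counts in days 14 and 21 against day 8 (*Eif2a*, *Eif2b4*, *Eif2b5*, *Eif3j1*, *Eif3k*, *Eif4a2*, *Eif4b*, *Eif4ebp2*, *Eif4ebp3* and *Eif4g2*). *Eif3j2* had 21 to 61 counts in replicate 1 and 6 to 24 in the others, and the spread between replicates limits its test (log2 fold change -0.45, SE 0.71).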
